A study of Mus musculus with 6 samples.

Results

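The genes described here are 9 genes of peroxisomal fatty acid oxidation, namely Acox2, Ehhadh, Hsd17b4, Acaa1a, Acaa1b, Scp2, Decr2, Crot and Pex11a. They were taken by name from the pathway, with earlier results of these data known, out of 18820 genes that the array measures with a probe set annotated to 1 gene. Each of the 9 had 1 such probe set, and all 9 reached a signal of 100 in all 6 arrays. Liver RNA of female mice on a C57BL/6J background was hybridised to Affymetrix Mouse Gene 1.1 ST arrays, with 1 array per mouse. LERKO mice (n = 3) carry 2 floxed ERα alleles (ERα fl/fl) and a cre recombinase transgene under the albumin promoter, which is active in hepatocytes and not in the other liver cell types. CT mice (n = 3) carry the same floxed alleles without cre, so the presence of cre and the loss of ERα cannot be told apart. Food was available ad libitum, and the age of these mice and any fast before collection are not given in the sources used here. Values are RMA signals per probe set on the log2 scale, on which a difference of 1 is a 2-fold change. They can be compared between mice for a gene, but not between genes.

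Peroxisomes shorten very long-chain, branched and dicarboxylic fatty acids and the side chains of bile acid precursors, which mitochondria handle poorly. An oxidase passes electrons directly to oxygen and forms hydrogen peroxide, a bifunctional enzyme hydrates and dehydrogenates the chain, a thiolase cleaves it, and the shortened chain leaves for the mitochondria. In rodent liver several of these genes are classical targets of PPARα, a nuclear receptor that binds fatty acids and whose activation multiplies the peroxisomes.

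A signal of 100 was reached by 9452 to 9865 probe sets in each array. Esr1, the deleted gene, was at 6.75, 7.06 and 6.77 in LERKO livers, against 8.45, 8.78 and 8.29 in CT livers, so each array carried the Esr1 level of its label. Both groups expressed the hepatocyte markers at similar levels, with a summed log2 signal of 15.85 to 15.90 in LERKO arrays and 15.84 to 15.94 in CT arrays. Genes of other organs stood out in a pair of arrays. In LERKO replicate 2 all 7 measured adrenal cortex genes were at their highest, with a summed log2 signal of 12.81 beside 6.36 and 6.66 in the other LERKO arrays and 6.27 to 6.29 in CT arrays, and the adipose list stood at 8.33 beside 6.36 and 6.66 in LERKO and 6.45 to 6.79 in CT arrays. In CT replicate 3 all 6 measured pancreatic acinar genes and all 6 muscle genes were at their highest, with summed log2 signals of 10.87 and 9.72, beside at most 6.44 and 7.80 in the LERKO arrays and at most 6.32 and 6.43 in the other CT arrays. The muscle sum of 7.80 was that of LERKO replicate 2, beside 6.77 and 6.58 in the other LERKO arrays. Kidney tubule genes, of another organ rich in peroxisomes, stayed below a signal of 100 in all 6 arrays for all 7 genes measured. In bulk tissue, fewer cells of a type and less RNA per cell cannot be told apart.

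The upstream sequences of members that differ in their values are shown so that they can be compared. RefSeq start sites (GRCm38.p6) were found for 8 of the 9 genes, and the 250 bases before the start were searched on both strands. Those of Acaa1b, Ehhadh and Acox2 overlap no annotated gene and are printed 5′ to 3′, with each CCAAT box (CCAAT, or ATTGG where it lies on the opposite strand) in capitals. The Acaa1b window lies at chr9:119157094-119157343, the Ehhadh window at chr16:21787835-21788084 and the Acox2 window, before the first of 2 listed starts, at chr14:8259020-8259269, all on the minus strand.
Acaa1b: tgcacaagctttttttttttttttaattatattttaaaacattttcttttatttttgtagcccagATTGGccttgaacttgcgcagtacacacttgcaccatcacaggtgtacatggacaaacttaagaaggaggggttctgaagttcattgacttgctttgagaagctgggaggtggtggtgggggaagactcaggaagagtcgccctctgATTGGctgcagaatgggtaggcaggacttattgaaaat
Ehhadh: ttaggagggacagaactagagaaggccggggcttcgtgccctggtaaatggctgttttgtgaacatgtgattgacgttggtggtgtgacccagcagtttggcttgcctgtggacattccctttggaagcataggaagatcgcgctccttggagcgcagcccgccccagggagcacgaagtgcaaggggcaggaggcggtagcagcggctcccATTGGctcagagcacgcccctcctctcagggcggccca
Acox2: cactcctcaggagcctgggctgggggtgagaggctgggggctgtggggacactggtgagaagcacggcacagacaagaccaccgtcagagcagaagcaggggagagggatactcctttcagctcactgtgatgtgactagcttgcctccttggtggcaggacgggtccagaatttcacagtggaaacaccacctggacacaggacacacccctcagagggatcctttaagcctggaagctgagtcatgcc
Both Acaa1b and Ehhadh carry ATTGG 38 bases before the start, and the Acox2 window holds none. A CCAAT box occurred in 4 of the 8 genes (Ehhadh, Acaa1a, Acaa1b and Crot), beside 33.8% of all 32851 start-site windows of this length. A GC box (GGGCGG), not marked in the sequences, occurred in 5 of the 8 (Ehhadh, Acaa1a, Decr2, Scp2 and Crot), beside 32.7% of all windows. The half-site of nuclear receptors, AGGTCA, occurred in Scp2 alone, beside 14% of all windows. Its direct repeat with 1 base between (AGGTCANAGGTCA), to which PPARα binds with its partner RXR, occurred in 0 of the 8 windows with up to 2 mismatches, beside 3.24% of all windows, and the estrogen response element (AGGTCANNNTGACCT) in 0 of 8, beside 1.27%. The longer motifs are built from the half-site, so these searches are not independent. The half-site was searched without mismatches, so a longer match with mismatches need not hold an exact half-site. Motif matches are a description of these letters only.

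Most of the 9 genes had a higher mean signal in LERKO than in CT livers, but none passed the test over the whole array. Of the 9, 8 had a log2 fold change above 0 and 1 below, where 46.5% of all 10633 probe sets tested lay above 0. At an adjusted p under 0.05 from limma, 0 of the 9 were higher and 0 lower, as were 0% of all probe sets in either direction. Esr1, the deleted gene, did not pass either, with a log2 fold change of −1.65 and an adjusted p of 0.149 from limma. Failing this threshold is therefore not evidence that a gene is unchanged. At an unadjusted p under 0.05 from limma, 5 of the 9 were higher (Acaa1a, Hsd17b4, Acaa1b, Decr2 and Pex11a) and 0 lower, beside 2.98% of all probe sets higher and 4% lower. The count of 5 was 2 without LERKO replicate 1 (beside 1.54% of all probe sets higher), 2 without LERKO replicate 3 (1.85%), 2 without CT replicate 2 (3.22%) and 3 without CT replicate 1 (2.85%). For 3 of the 9 (Acaa1a, Hsd17b4 and Decr2) all LERKO mice lay above all CT mice, and for 0 below, where 5.91% of all probe sets were separated upwards and 7.13% downwards. The median log2 fold change of the 9 genes was 0.22, beside −0.0099 over all probe sets.

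**Figure D1:**
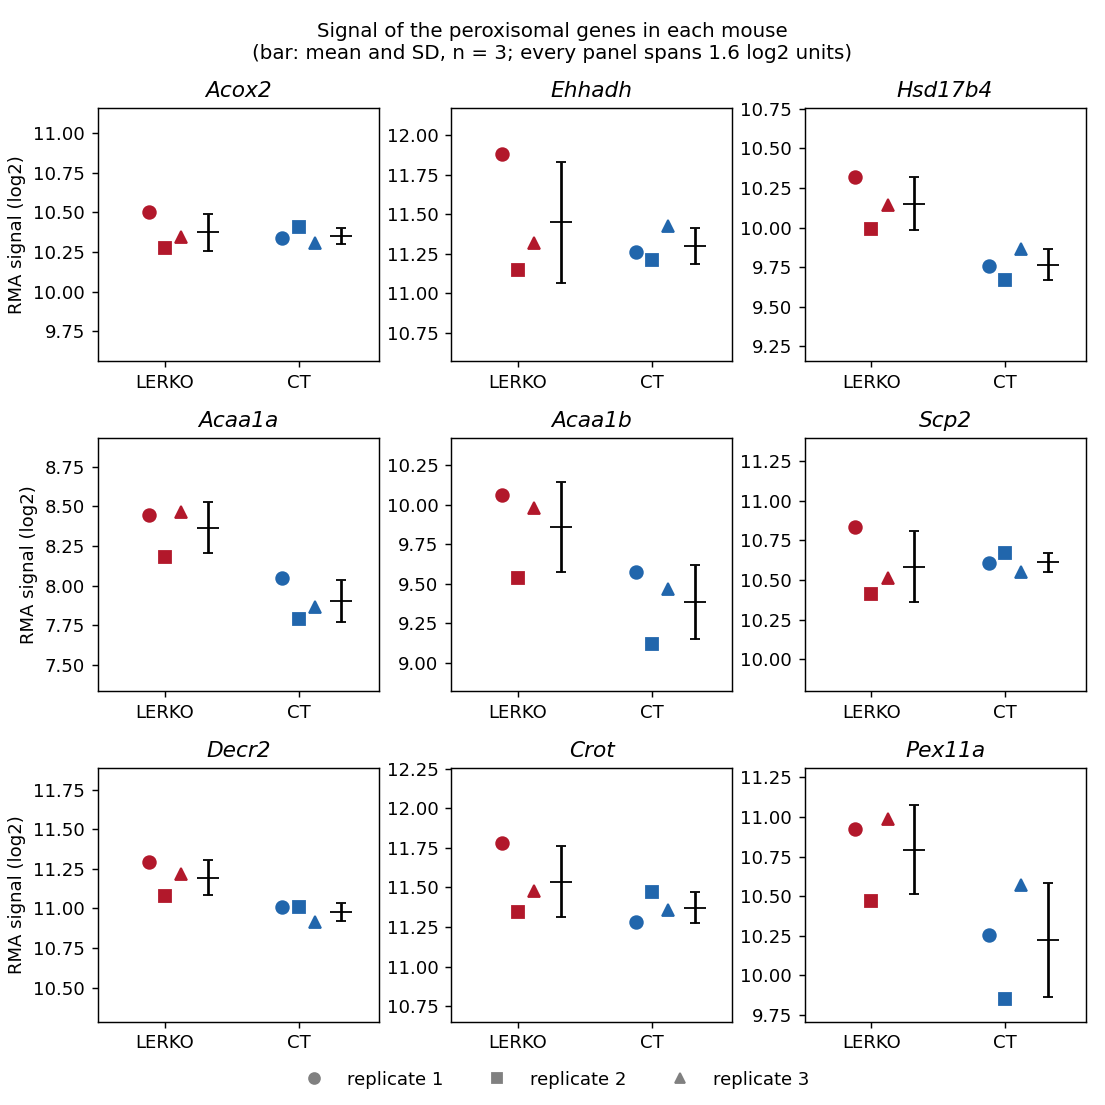
RMA signal (log2) of the 9 genes, with a point for each mouse and a bar for the group mean and SD (3 LERKO and 3 CT mice); every panel covers the same range. The LERKO points are clear of the CT points for Hsd17b4, Acaa1a and Decr2, and the groups overlap for the other genes.

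**Figure D2:**
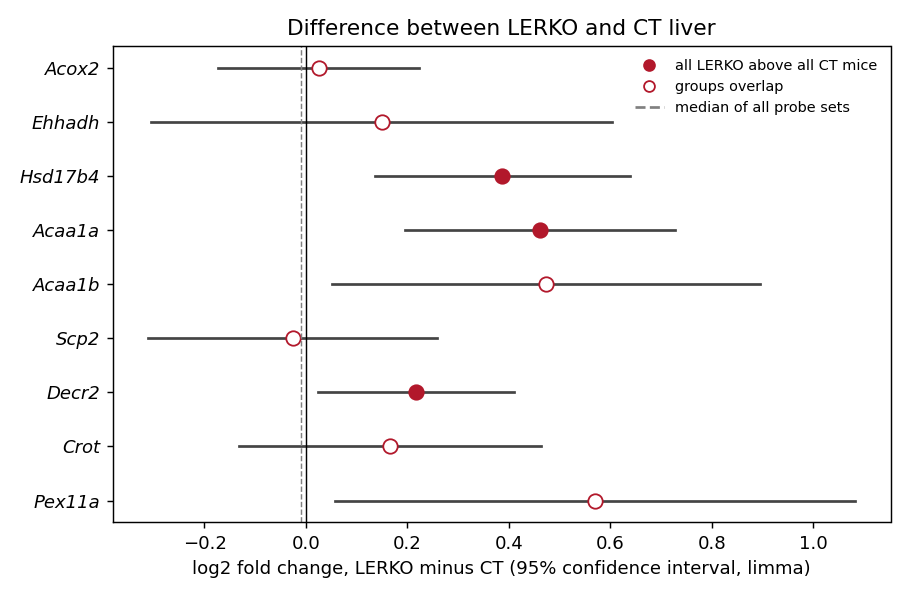
Log2 fold change of LERKO against CT for the 9 genes, with the 95% confidence interval from limma; filled points are genes whose groups do not overlap, and the dashed line is the median of all probe sets. The intervals of Hsd17b4, Acaa1a, Acaa1b, Decr2 and Pex11a lie above 0, before adjustment for the number of probe sets.

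Of the oxidases, Acox2, which starts the oxidation of branched chains and of bile acid side chains, had nearly equal means in both groups. Its signals were 10.50, 10.27 and 10.34 in LERKO livers and 10.33, 10.40 and 10.31 in CT livers. The groups overlapped, and LERKO mice held both the highest and the lowest value. LERKO livers had 1.02 times the CT level (95% confidence interval 0.887 to 1.17 from limma). The interval covers levels below and above that of CT, and whether the levels are equal was not tested.

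The 2 bifunctional enzymes gave different values. Hsd17b4, the D-bifunctional protein, which acts on very long-chain and branched chains and on bile acid precursors, was at 10.32, 9.99 and 10.14 in LERKO livers, against 9.76, 9.67 and 9.87 in CT livers. All LERKO mice lay above all CT mice, by 0.12 between the nearest pair. The means were 10.15 ± 0.17 in LERKO and 9.76 ± 0.10 in CT livers (SD, n = 3 each), which is 1.31-fold (95% confidence interval 1.1 to 1.56). Its unadjusted p of 0.00871 from limma ranked 124th of all probe sets, and the adjusted p was 0.703. Ehhadh, the L-bifunctional protein and a classical PPARα target, was at 11.88, 11.15 and 11.32 in LERKO livers, against 11.26, 11.21 and 11.43 in CT livers. LERKO replicate 1 alone lay above the CT mice, and LERKO replicate 2 was the lowest of the 6. The LERKO level of Ehhadh was 1.11 times that of CT (95% confidence interval 0.809 to 1.52, adjusted p = 0.874 from limma), and its log2 fold change of 0.15 turned to −0.067 without LERKO replicate 1. Whether Hsd17b4 and Ehhadh differ from each other in their response was not tested.

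Among the thiolases, both ketoacyl-CoA thiolase genes were higher in LERKO on average and Scp2 was not. Acaa1a was at 8.45, 8.18 and 8.47 in LERKO livers, against 8.05, 7.79 and 7.86 in CT livers. The groups were separated by 0.13, and the means were 8.36 ± 0.16 in LERKO and 7.90 ± 0.13 in CT (SD, n = 3 each). Acaa1a was 1.38-fold higher in LERKO (95% confidence interval 1.15 to 1.66), with the smallest unadjusted p of the 9 genes (0.00484 from limma, 64th of all probe sets) and an adjusted p of 0.703. Its paralog Acaa1b was at 10.06, 9.54 and 9.98 in LERKO livers, against 9.57, 9.12 and 9.46 in CT livers. LERKO replicate 2 lay just under CT replicate 1, and the other LERKO mice lay above all CT mice. The fold change of Acaa1b was 1.39 (95% confidence interval 1.04 to 1.86, adjusted p = 0.703 from limma). The transcripts of these paralogs are close in sequence, and whether probes of one also bind the other was not tested, so the pair may not be independent measurements. Scp2, which encodes the thiolase for branched chains and bile acid precursors together with a sterol carrier protein, was at 10.83, 10.41 and 10.51 in LERKO livers, against 10.61, 10.67 and 10.55 in CT livers. The LERKO values surrounded the CT values, with 0.982 times the CT level on average (95% confidence interval 0.806 to 1.20). Acox2, Hsd17b4 and Scp2 all serve the bile acid side chain, and of these Hsd17b4 alone had groups that did not overlap.

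Decr2, the peroxisomal dienoyl-CoA reductase needed for polyunsaturated chains, showed a small difference without overlap of the groups. It was at 11.29, 11.08 and 11.22 in LERKO livers, against 11.01, 11.01 and 10.91 in CT livers. The nearest LERKO and CT mice were 0.064 apart. LERKO livers had 1.16 times the CT level (95% confidence interval 1.02 to 1.33, adjusted p = 0.703 from limma). Crot, the carnitine octanoyltransferase that readies shortened chains for export, was at 11.78, 11.35 and 11.48 in LERKO livers, against 11.28, 11.47 and 11.36 in CT livers. The groups overlapped, and the fold change was 1.12 (95% confidence interval 0.913 to 1.38).

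Pex11a, a membrane protein that elongates peroxisomes before they divide, had the largest difference of the 9 genes and also the widest spread among CT mice. It was at 10.93, 10.47 and 10.99 in LERKO livers, against 10.25, 9.85 and 10.57 in CT livers. LERKO replicate 2 lay below CT replicate 3, so the groups overlapped. The means were 10.79 ± 0.28 in LERKO and 10.22 ± 0.36 in CT livers (SD, n = 3 each), a fold change of 1.48 (95% confidence interval 1.04 to 2.12, adjusted p = 0.703 from limma). Its log2 fold change of 0.57 was 0.38 without CT replicate 2 and 0.74 without CT replicate 3.

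The 9 genes also had features of the order of the mice in common. LERKO replicate 2 was the lowest of the LERKO mice for all 9 genes, as it was for 34.2% of all probe sets, and LERKO replicate 1 was the highest of all 6 mice for 7 of the 9, beside 13.6% of all probe sets. CT replicate 2 was the lowest of all 6 for 4 of the 9 (Hsd17b4, Acaa1a, Acaa1b and Pex11a), beside 16.4%. Averaged over the 9 genes, and relative to the mean of the 6 mice, the LERKO mice were at 0.33, −0.074 and 0.15 and the CT mice at −0.11, −0.21 and −0.085 on the log2 scale. LERKO replicate 2 thus lay only just above the highest CT mouse. The SD was larger in LERKO than in CT livers for 8 of the 9 genes (all but Pex11a), beside 39.4% of all probe sets. LERKO replicate 2, the array with adrenal and adipose genes, also had the highest muscle sum of the LERKO arrays. Without it all LERKO values lay above the CT values for 6 of the 9 genes, beside 12.3% of all probe sets, a share that was 5.91% with all 6 arrays. In CT replicate 2 the summed signal of the Kupffer cell markers was the lowest of all arrays, at 10.86. It was 11.31 to 11.50 in LERKO and 11.38 and 11.58 in the other CT arrays. The sums of stellate, endothelial and leukocyte markers were also lowest in CT replicate 2, at 10.85, 11.15 and 7.32, but their genes differed. Reln, Ecm1, Colec10, Stab2, Clec4g, Kdr, Ptprc and Cd3e were each lowest there. Lrat was lowest in CT replicate 1, and Des, Pecam1, Cd79a, Nkg7 and Cd8a in a LERKO array. Lyve1 was at its highest in CT replicate 2, at 7.89. Of the 5 leukocyte markers, 4 stayed below a signal of 100 in all 6 arrays. The endothelial sum was close to the 11.17 of LERKO replicate 1. The sum of bile duct markers was highest in CT replicate 2, at 7.75, mainly through Sox9 (7.32 there). Krt19, Krt7 and Epcam stayed below a signal of 100 in all 6 arrays, and Krt19 and Epcam were lowest in CT replicate 2. The part of these cell types in the order of the mice was not tested.

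**Figure D3:**
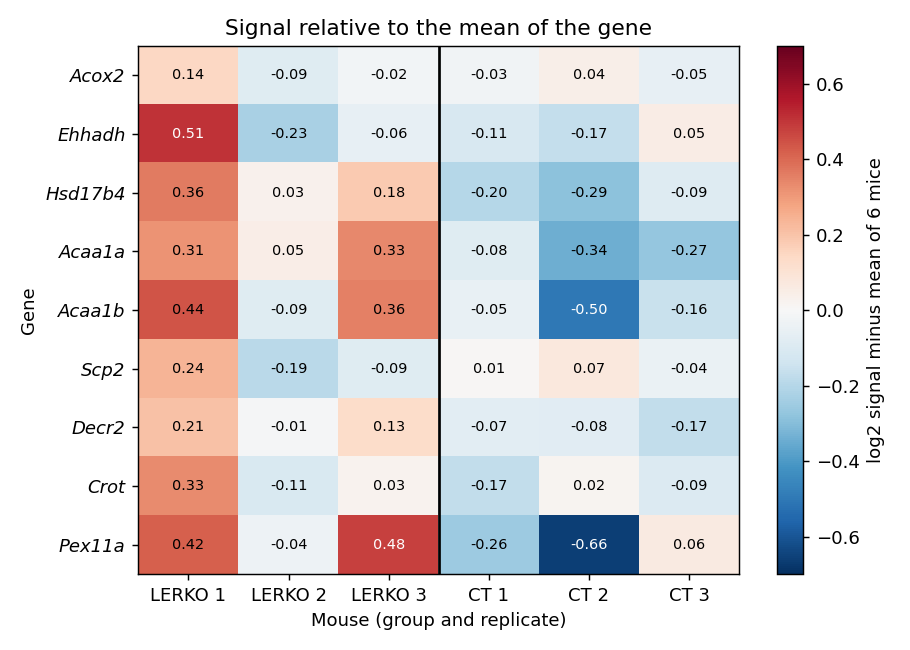
Signal of each gene in each mouse minus the mean of the gene over the 6 mice (log2), LERKO mice left of the line and CT mice right of it, with the value printed in each cell. LERKO replicate 1 is above the gene's mean for all 9 genes, and LERKO replicate 2 lies between −0.23 (Ehhadh) and 0.05 (Acaa1a).

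Leaving out 1 mouse at a time separated the genes into those that kept an unadjusted p under 0.05 from limma and those that did not. Acaa1a and Hsd17b4 kept it with any 1 mouse left out, with p values of at most 0.0203 and 0.0289 and log2 fold changes of 0.41 to 0.55 and 0.30 to 0.47. For Acaa1b (highest p 0.103), Decr2 (0.111) and Pex11a (0.105) it was lost with at least 1 mouse left out. An exact two-sided permutation test of 3 mice against 3 gave p = 0.1 for Acaa1a, Hsd17b4 and Decr2, the smallest p that this design allows, and 0.2 for Acaa1b and Pex11a. With both LERKO replicate 2 and CT replicate 3 left out, all 9 genes lay above 0 with a median of 0.36, and 7 had groups that did not overlap, beside 17.4% of all probe sets with so few mice.

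**Figure D4:**
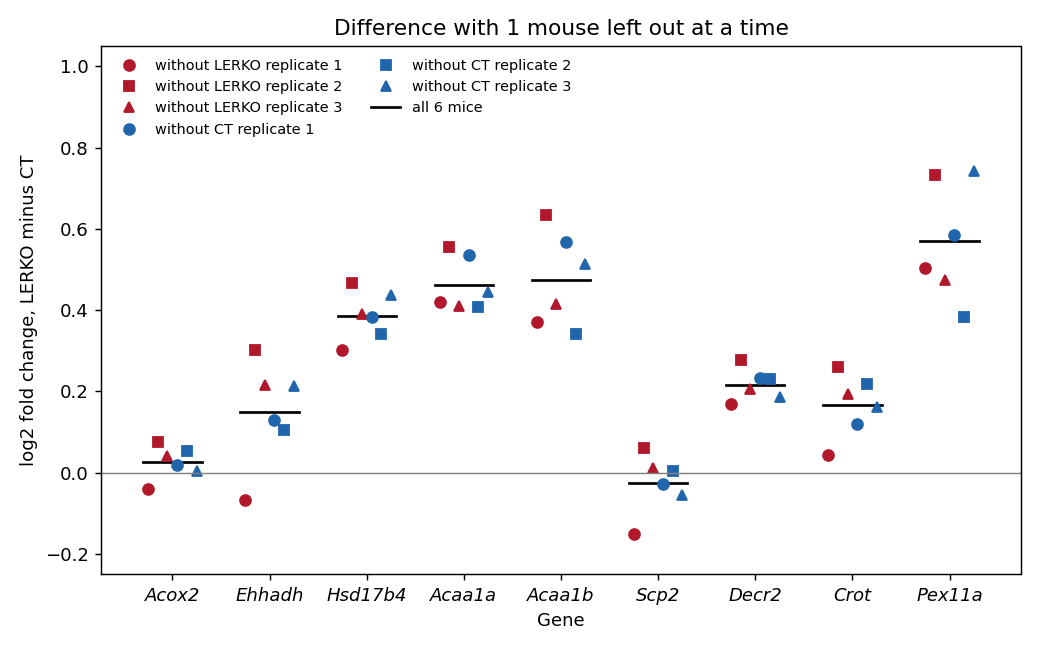
Log2 fold change of LERKO against CT for the 9 genes with all 6 mice (bar) and with each mouse left out (points, coloured by the group of the mouse left out). Hsd17b4, Acaa1a, Acaa1b and Pex11a stay at 0.30 or above, Decr2 and Crot stay above 0, and Acox2, Ehhadh and Scp2 lie on both sides of 0.

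Other genes of the peroxisome had a smaller median difference, and whether it differs from that of the 9 genes was not tested. Of 66 further genes in 6 lists, 56 had a probe set of their own and 47 reached a signal of 100 in at least 1 array. Of these 47, 34 were above 0 and 13 below, beside 46.5% of all probe sets above 0, with a median log2 fold change of 0.10. At an unadjusted p under 0.05 from limma 5 were higher and 0 lower, beside 2.98% and 4% of all probe sets, and 0 passed after adjustment. The groups did not overlap for 8, all with LERKO above CT, beside 5.91% of all probe sets.

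Enzymes that release shortened chains held the largest differences among these lists. Of 7 genes kept there, 5 were above 0, beside 46.5% of all probe sets, with a median of 0.15. Acot3 and Acot4, thioesterases that free fatty acids from coenzyme A in the peroxisome, had log2 fold changes of 0.55 and 0.44 (adjusted p = 0.703 from limma for both). Acot3 was at 10.10, 10.41 and 10.45 in LERKO livers, against 9.92, 9.37 and 10.01 in CT livers, without overlap. For Acot3, LERKO replicate 2 was not the lowest LERKO mouse, unlike for the 9 genes above. Acot4 was at 10.23, 10.08 and 10.39 in LERKO livers, against 9.82, 9.56 and 10.005 in CT livers. Crat, a carnitine acetyltransferase, had 0.44 with overlapping groups, while Nudt7 and Nudt19, hydrolases of coenzyme A, had −0.023 and −0.038.

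The other peroxisomal lists had medians of 0.13 or lower. The counts above 0 given here stand beside 46.5% of all probe sets. Aldh3a2, a fatty aldehyde dehydrogenase of alpha-oxidation, had a log2 fold change of 0.39 without overlap (adjusted p = 0.703 from limma), and all 4 genes kept of alpha-oxidation and ether lipid synthesis were above 0, with a median of 0.067. Of 16 genes of peroxisome biogenesis, 14 were above 0, with a median of 0.13. Among them Tysnd1 and Lonp2, proteases of the peroxisomal matrix, had 0.29 and 0.28, and Pex10, part of the import machinery, 0.19. Of 8 genes of import and activation, 5 were above 0, with a median of 0.063. Slc27a2, which activates very long-chain fatty acids, had 0.21 without overlap, although the nearest mice were only 0.0040 apart. Abcd3, a transporter of the peroxisomal membrane, had 0.20, and Acsl4, a fatty acid ligase, −0.25. Of 5 further enzymes of beta-oxidation, 3 were above 0, with a median of 0.10, from Amacr, the racemase for branched chains, at −0.062 to Eci2, an enoyl-CoA isomerase, at 0.26. Catalase, which removes the hydrogen peroxide formed by the oxidases, was at 13.12, 13.10 and 13.17 in LERKO livers, against 13.14, 13.12 and 13.24 in CT livers. The log2 fold change of Cat was −0.034, and the list of catalase and other oxidases had 3 of 7 genes above 0, with a median of −0.0070.

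Mitochondrial beta-oxidation, the pathway most like it, had a median of like size. Of 17 genes measured, 16 were above 0 and 1 below, with a median log2 fold change of 0.21. At an unadjusted p under 0.05 from limma 5 were higher and 0 lower, and the groups did not overlap for 8, all with LERKO above CT. Decr1, the mitochondrial counterpart of Decr2, was at 10.07, 9.68 and 10.04 in LERKO livers, against 9.43, 9.22 and 9.47 in CT livers, a difference of 0.56 on the log2 scale (limma adjusted p = 0.703) beside 0.22 for Decr2. Cpt2, which reforms acyl-CoA inside the mitochondrion, had 0.28, Etfdh, which passes electrons to the respiratory chain, 0.32, and Echs1, an enoyl-CoA hydratase, −0.12. Averaged over this list, the LERKO mice were at 0.23, −0.0041 and 0.095 and the CT mice at −0.11, −0.10 and −0.11 relative to the mean of all 6. LERKO replicate 1 was thus the highest and LERKO replicate 2 the lowest LERKO mouse here too. Whether the 2 pathways differ was not tested.

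For PPARα itself the LERKO and CT values were close. Ppara was at 10.98, 10.89 and 10.99 in LERKO livers, against 10.99, 10.96 and 10.998 in CT livers, a log2 fold change of −0.026. Of 9 genes measured of PPARα, related receptors and coactivators, 4 were above 0 and 5 below, with a median of −0.026, beside 46.5% of all probe sets above 0. Ppargc1b, a coactivator of mitochondrial and lipid genes, was at 6.98, 7.29 and 7.22 in LERKO livers, against 7.75, 7.91 and 7.30 in CT livers. The groups did not overlap, although the nearest mice were only 0.0049 apart, and the log2 fold change was −0.49 (limma adjusted p = 0.703). Ppard, a related receptor, had −0.10 without overlap.

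**Figure D5:**
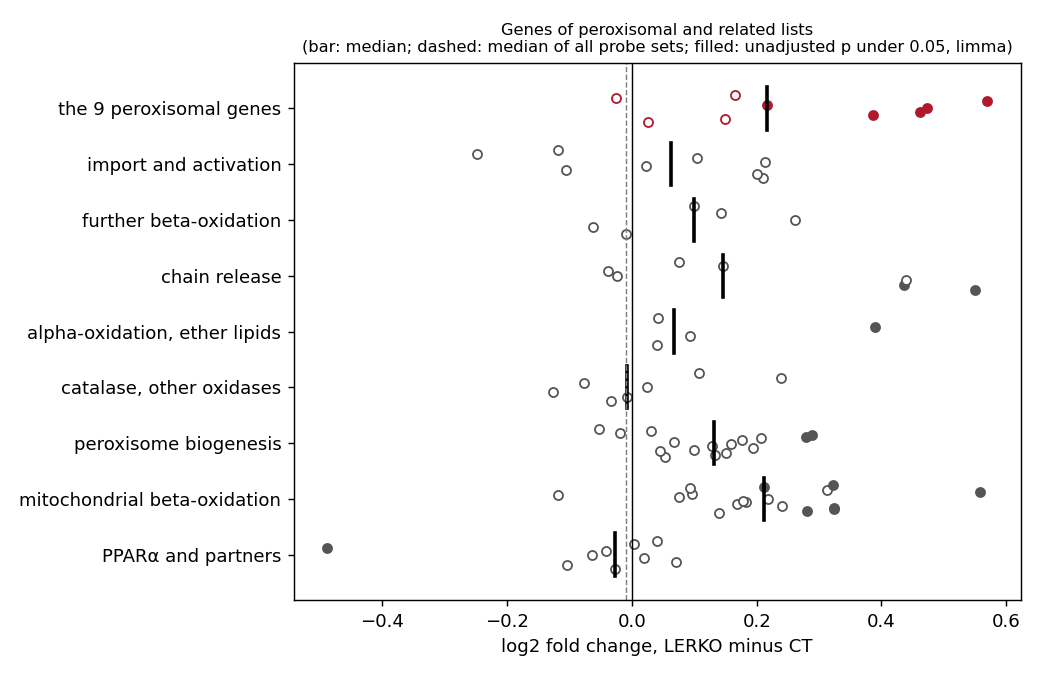
Log2 fold change of LERKO against CT for the genes kept of 9 lists, 1 point per gene, with the median of each list as a bar and the median of all probe sets as a dashed line; filled points have an unadjusted p under 0.05 from limma. The medians of the 9 peroxisomal genes and of mitochondrial beta-oxidation lie at 0.22 and 0.21, and that of PPARα and partners at −0.026.

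Over the 6 mice, the genes with the profile nearest to the average of the 9 genes were Cenpv, Etfdh, Oplah, Abcb4 and Adtrp, out of 7886 other probe sets with 1 gene. Likeness was the root mean square difference of the 6 signals from the average profile, each relative to its own mean, and ran from 0.043 for Cenpv to 0.056 for Adtrp, beside a spread of 0.18 of the profile itself. Etfdh belongs to mitochondrial beta-oxidation, Abcb4 exports phospholipid into bile, and Oplah is an oxoprolinase of glutathione turnover. Their log2 fold changes lay between 0.26 and 0.34, each at an adjusted p of 0.703 from limma. The average profile itself differed by 0.27 between LERKO and CT. Fold changes near this value therefore follow from the way these genes were chosen.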

How the data were processed

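Liver RNA of 3 LERKO and 3 CT female mice was measured on 1 array each. The authors made the deposited log2 signals by RMA with the oligo package (background correction, quantile normalization and summary of probes, version not given in the sources used here). The table of 35556 probe sets was not filtered. Following the methods' cut-off of 100, probe sets that reached it in at least 1 array were kept (10633). LERKO and CT were compared with limma 3.58.1 in R 4.3.3, two-sided, with genotype as the only term and p values adjusted by Benjamini and Hochberg's method across those 10633, with a threshold of 0.05, and the fit was tested on simulated data. Probe sets were named from the platform annotation where it gives 1 gene, with symbols updated through RefSeq gene identifiers (21185 of 21218 found). Where a gene had several, the one of highest mean was used.

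Upstream sequences are from RefSeq (GRCm38.p6), as the 250 bases before the start. The 9 genes, the gene lists and the naming rule (all 9, and up to 3 genes of smallest p per direction of each further list) were chosen with earlier results of these data known. P values measure the spread between mice, and the number of arrays limits the precision. Alternatives covered the filter, the annotation, the variance model, array weights, scaling, the replicate block and arrays left out.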

Additional observations from a re-analysis of the deposited data

How the results depend on the processing

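Under 16 alternatives, the log2 fold changes of the 9 genes kept their direction and their side of the threshold in 138 of 144 cases. In the 6 others the sign turned, for genes near 0. With 1 mouse left out Acox2 ranged from −0.040 to 0.075, Ehhadh from −0.067 to 0.30 and Scp2 from −0.15 to 0.062, and Scp2 was 0.033 with LERKO replicate 2 and CT replicate 3 both left out. The cause was not tested. None of the 9 genes passed an adjusted p of 0.05 under these alternatives (smallest 0.339, without CT replicate 3), and their median stayed between 0.17 (without LERKO replicate 1) and 0.36 (both arrays left out). The number of the 9 higher at an unadjusted p under 0.05 was 2 to 5 with 1 mouse left out, beside 1.54% to 3.75% of all probe sets. All LERKO values lay above the CT values for 3 to 6 genes with 1 mouse left out (6 without LERKO replicate 2), beside 8.93% to 12.3% of all probe sets, and for 7 with both arrays left out, beside 17.4%. Without LERKO replicate 1, the LERKO values of 1 gene, Scp2, lay below the CT values. In that setting 9.69% of all probe sets were separated upwards. The share separated downwards is not given here, so this count is not read as a result about Scp2. Over all probe sets, 0 were called in the main comparison, beside 317 higher and 425 lower at an unadjusted p under 0.05. Where a signal of 100 was required in all 6 arrays 3 were called, Esr1 among them. With an intensity trend 1 was called, which was Esr1. With 1 mouse left out 0 to 1 were called (1 without LERKO replicate 3).

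With the replicate number as a block, 4 of the 9 genes were at an unadjusted p under 0.05, and over all probe sets 231 were higher and 343 lower, with 0 after adjustment. The labels do not say that numbers pair the mice, and same-numbered arrays deviated with correlations of −0.16, −0.073 and −0.14. Centring the arrays on their medians moved the median of all probe sets by 0.011 on the log2 scale. Each of the 9 genes has 1 probe set of its own, so averaging probe sets gave no other value.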
